A study of Mus musculus with 10 samples.

Results

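The genes described here encode 10 surface or secreted molecules through which a myeloid cell stimulates or restrains a T cell. They were chosen by name from the 55487 genes of the count table, with earlier results of these data known. They are *Cd80*, *Cd86*, *Cd40*, *Icosl* and *Tnfsf9*, which belong to costimulation, and *Cd274*, *Pdcd1lg2*, *Vsir*, *Havcr2* and *Lgals9*, which belong to checkpoint pathways. All 10 passed the filter on low counts, and their smallest count in any library was 111, for *Pdcd1lg2*.

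The study sorted viable Ly6G-CD3-CD45+CX3CR1+ cells from spinal cords of male C57BL/6 mice, 8 to 12 weeks old, at the peak of experimental autoimmune encephalomyelitis (EAE), in which immunization against a myelin peptide leads to inflammation and demyelination. All mice carried the Arg1tm1Lky allele, which makes cells that transcribe *Arg1* fluoresce with YFP, and there was no unimmunized group in this experiment. RNA from 200000 YFP+ (ARG1+) and 100000 YFP- (ARG1-) cells of each of 5 mice, called m2, m6, m234, m235 and m236, gave 5 libraries per group, so that each mouse is in both groups. The comparison asks how cells that express arginase-1, an enzyme that consumes arginine, differ in their RNA from the other CX3CR1+ cells of the same spinal cords. The gate does not separate macrophages that reside at CNS borders, microglia and cells derived from monocytes, and a difference in bulk RNA cannot tell fewer cells of a type from less RNA per cell. YFP reports transcription of *Arg1*, not arginase activity.

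T cells need a second signal beside the antigen receptor. CD80 and CD86 on antigen-presenting cells give it through CD28 and are also bound by the inhibitory receptor CTLA-4, while ICOS ligand and the *Tnfsf9* product sustain T cells that are already activated. CD40 works in the other direction, since it is the receptor through which T cells that carry CD40 ligand activate the myeloid cell. PD-L1 (*Cd274*) and PD-L2 (*Pdcd1lg2*) restrain T cells through PD-1, VISTA (*Vsir*) is an inhibitory molecule of myeloid cells, and TIM-3 (*Havcr2*) is an inhibitory receptor found on T cells and myeloid cells, for which galectin-9 (*Lgals9*) is a described ligand. In EAE, antigen-presenting cells of the CNS restimulate the T cells that enter the spinal cord.

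Several of the genes share a chromosome. On GRCm38, with coordinates of the table, *Cd274* (chr19:29367455-29388095) lies next to *Pdcd1lg2* (chr19:29410919-29471161), both on the plus strand. Chromosome 16 holds *Cd80* (chr16:38455561-38496335, plus strand) and *Cd86* (chr16:36603869-36666081, minus strand). *Icosl* (chr10:78069302-78083913) and *Vsir* (chr10:60346851-60372684) are on chromosome 10, and *Havcr2* (chr11:46454935-46481255) and *Lgals9* (chr11:78962974-78984946) on chromosome 11, where only *Lgals9* is on the minus strand. *Cd40* is at chr2:165055627-165072948 and *Tnfsf9* at chr17:57105325-57107757, both on the plus strand.

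Library totals ranged from 28870482 to 33826355 counts in ARG1+ and from 8396863 to 35455643 in ARG1- cells. *Arg1* was at 579 to 1050 counts per 1000000 counts of the library (CPM) in ARG1+ and at 14.4 to 27.9 CPM in ARG1- libraries. The markers of the gated cells *Cx3cr1*, *Ptprc*, *Itgam* and *Csf1r* were at 42.8 CPM or more in every library. One library stood apart. The ARG1- library of m234 had the lowest total, and its 7 microglia markers summed to 2860 CPM, against 758 to 1370 CPM in the other ARG1- libraries and 689 to 1030 CPM in the ARG1+ libraries. Fold changes of the called members and of other genes that it sets apart are also given without it.

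Most of the costimulatory genes and *Havcr2* were lower in ARG1+ cells, while the group means of *Cd274*, *Lgals9* and *Tnfsf9* differed by less than the spread between libraries. In edgeR's quasi-likelihood test, *Cd80*, *Cd86*, *Cd40*, *Icosl* and *Havcr2* passed a false discovery rate (FDR) of 0.05, all lower in ARG1+ cells, so 5 of 10 genes fell and 0 rose, as with DESeq2, limma-trend and an unadjusted p below 0.05. Of all 13740 genes tested, 6.15% were lower and 6.82% higher by the same rule. The median log2 fold change of the 10 genes was -0.46, against -0.0022 over all genes tested. None of the 5 changed by more than 1 on the log2 scale, a further limit that 0.888% of all genes passed downwards and 0.56% upwards. For 4 of the 10 (*Cd86*, *Cd40*, *Icosl* and *Havcr2*) every ARG1+ library was below every ARG1- library, as for 7.61% of all genes. With the animal as a block in the fit, which compares each mouse with itself, 6 of 10 were lower and 0 higher, where 18.3% of all genes were lower and 16.8% higher, and the additional gene was *Pdcd1lg2*. When each library or each animal was left out in turn, 3 to 5 of the 10 passed. These fits, here and below, did not use the block and so ignore the pairing by mouse. *Cd86*, *Cd40* and *Havcr2* passed in all 15 of these fits, and the calls lost were those of *Cd80* and *Icosl*.

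**Figure D1:**
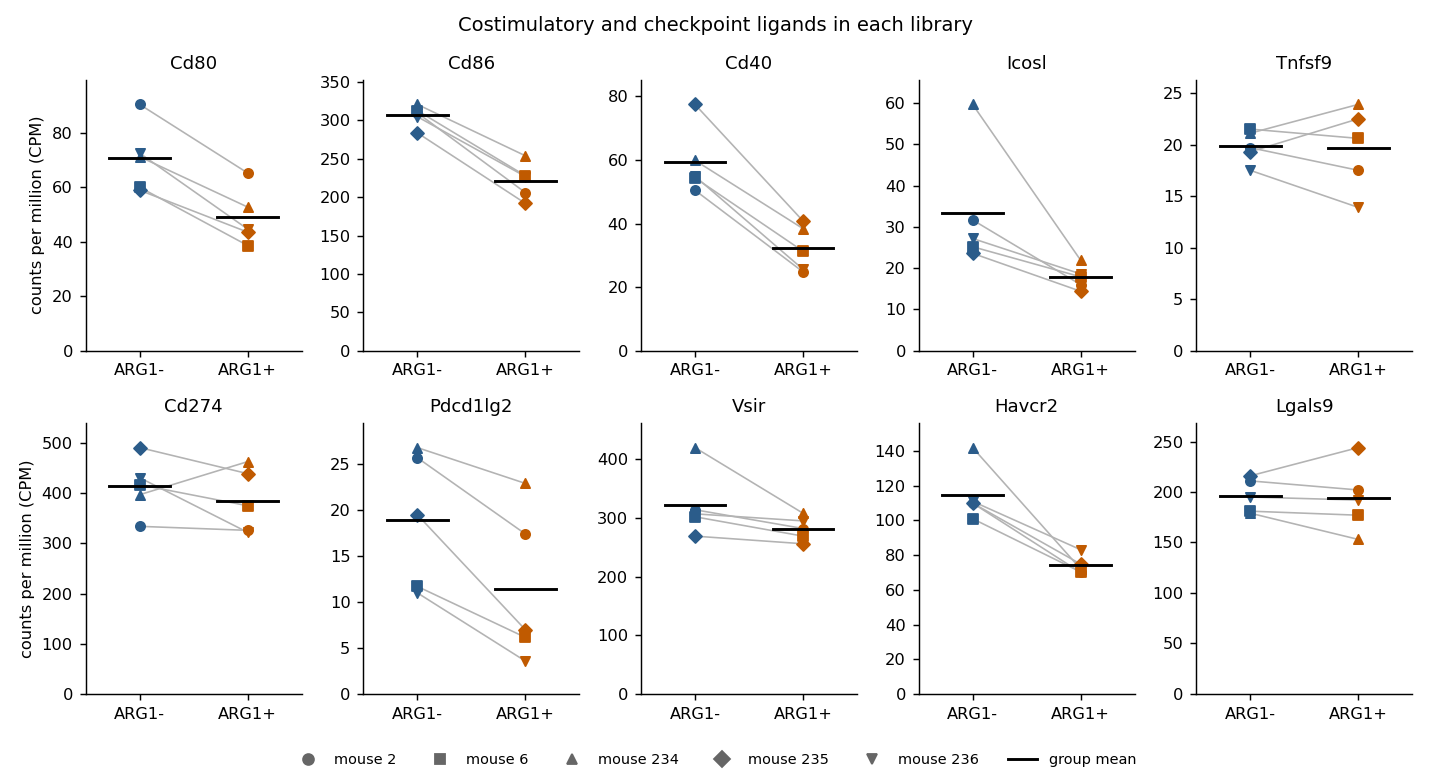
CPM (vertical axes, from 0) of the 10 genes in the 5 ARG1- and 5 ARG1+ libraries, with lines joining the libraries of 1 mouse and black bars for group means. *Cd80*, *Cd86*, *Cd40*, *Icosl*, *Pdcd1lg2*, *Vsir* and *Havcr2* slope down in each of the 5 mice, while *Tnfsf9*, *Cd274* and *Lgals9* go both ways.

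Per transcript length, the molecules differ far more from each other than between the groups. In ARG1- cells the mean level, as TPM computed from the counts and exon lengths, was 265 for *Lgals9*, 263 for *Cd86* and 249 for *Cd274*, whose ranges over the 5 libraries overlap. *Vsir* followed with 142 TPM and *Havcr2* with 91.7 TPM, each below its upper neighbour without overlap. *Cd40* (43.3 TPM) lay below *Havcr2* without overlap. *Cd40*, *Cd80* (41.6 TPM), *Tnfsf9* (33.5 TPM), *Icosl* (25.9 TPM) and *Pdcd1lg2* (21.1 TPM) each overlapped with the next. PD-L1 transcripts were thus at more than the level of PD-L2 in every library, and CD86 transcripts at more than the level of CD80. In ARG1+ cells *Lgals9* (263 TPM) and *Cd274* (233 TPM) came before *Cd86* (191 TPM), whose range of 167 to 217 TPM still overlaps with that of *Cd274*, and *Cd40* (23.6 TPM) came after *Tnfsf9* (33.4 TPM) and *Cd80* (29.0 TPM).

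CD80 and CD86, the ligands of CD28 and CTLA-4, were both lower in ARG1+ cells. In m2, m6, m234, m235 and m236, the order used throughout, *Cd86* was at 206, 228, 254, 192 and 227 CPM in ARG1+ and at 310, 313, 321, 284 and 305 CPM in ARG1- libraries. The highest ARG1+ library thus lay below the lowest ARG1- library, and the ARG1- libraries were close together, with a coefficient of variation of 4.5%. The log2 fold change was -0.43 ± 0.073 (SE, n = 5 per group, FDR 0.00353, edgeR), and the drop within a mouse ranged from -0.34 to -0.59. Without the ARG1- library of m234 it was -0.41 (FDR 0.00764, edgeR).

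*Cd80* was at 65.2, 38.6, 52.7, 43.5 and 44.6 CPM in ARG1+ and at 90.4, 60.0, 71.2, 58.9 and 72.5 CPM in ARG1- libraries. The groups overlap, because m2 was high in both, but every mouse had less in its ARG1+ cells, with log2 differences of -0.43 to -0.70. The fit gave -0.49 ± 0.14 (SE, FDR 0.0425, edgeR), near the limit. The call was lost in 11 of the 15 fits that left out a library or an animal, with FDRs of 0.0518 to 0.148 (edgeR). These were the fits without the ARG1+ library of m6, m234, m235 or m236, without the ARG1- library of m2, m234 or m236, and without m6, m234, m235 or m236 as a whole. Without the ARG1- library of m234 the value was -0.48 (FDR 0.062, edgeR). With the animal as a block the value was -0.50 (FDR 5.9e-05, edgeR).

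The ratio of the 2 ligands did not separate the groups. For every 100 counts of *Cd86* there were 31.7, 16.9, 20.8, 22.6 and 19.6 of *Cd80* in ARG1+ and 29.1, 19.2, 22.2, 20.7 and 23.7 in ARG1- libraries, with the highest value of both groups in m2. The difference in log2 ratio was -0.061 (exact permutation test, 2-sided, n = 5 per group, p = 0.746, adjusted over 3 ratios p = 0.746).

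CD40, the receptor for CD40 ligand of T cells, and ICOS ligand showed the lowest fold changes of the genes that passed. *Cd40* was at 24.8, 31.3, 38.4, 40.8 and 25.6 CPM in ARG1+ and at 50.5, 54.4, 59.9, 77.5 and 54.9 CPM in ARG1- libraries. There was no overlap, and m235 was highest in both groups. The log2 fold change was -0.84 ± 0.16 (SE, FDR 0.0069, edgeR), so the level fell by 44.3%, with -0.64 to -1.10 within single mice. Leaving out libraries or animals gave -0.71 to -0.95 (FDR 0.00465 to 0.0413, edgeR), and -0.84 without the ARG1- library of m234 (FDR 0.0126, edgeR).

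*Icosl* was at 16.0, 17.9, 21.9, 14.4 and 18.6 CPM in ARG1+ and at 31.7, 25.2, 59.7, 23.6 and 27.2 CPM in ARG1- libraries. The groups do not overlap, but the value of 59.7 CPM is that of the shallow m234 library with the high microglia markers. Over all libraries the log2 fold change was -0.84 ± 0.23 (SE, FDR 0.0321, edgeR). Without that library it was -0.56 (FDR 0.0127, edgeR), so a smaller difference passed with a smaller spread. The call was lost in 9 of 15 fits (FDR 0.0509 to 0.125, edgeR), those without the ARG1+ library of m2, m6, m235 or m236, without the ARG1- library of m2, and without m2, m6, m235 or m236 as a whole. The fit with the animal as a block gave -0.79 (FDR 0.000698, edgeR). The part of microglia in the level of *Icosl* was not tested.

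The *Tnfsf9* product, which stimulates T cells through the receptor encoded by *Tnfrsf9*, did not pass. *Tnfsf9* was at 17.5, 20.6, 23.9, 22.5 and 13.9 CPM in ARG1+ and at 19.7, 21.5, 21.1, 19.3 and 17.5 CPM in ARG1- libraries. ARG1+ cells had more in m234 and m235 and less in the other mice, and the log2 fold change was 0.034 with a 95% interval of -0.26 to 0.32 (FDR 0.895, edgeR). Its sign turned with library totals as the only scaling (-0.0083, FDR 0.976, edgeR). An antisense gene, *Gm11110*, covers 8.76% of its exon bases and was at 2.83 to 5.11 CPM, and the sources do not say whether counting used the strand.

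**Figure D2:**
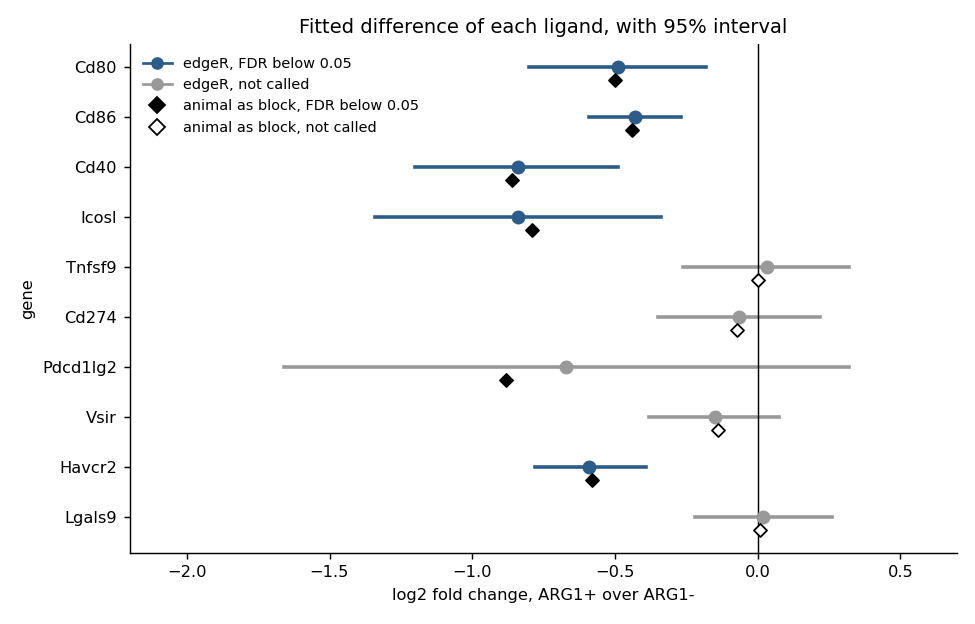
Log2 fold change of ARG1+ over ARG1- cells (horizontal axis) for each gene, with circles and bars for the edgeR estimate and its 95% interval and diamonds for the estimate with the animal as a block. The intervals of *Cd80*, *Cd86*, *Cd40*, *Icosl* and *Havcr2* lie below 0, and that of *Pdcd1lg2* is the widest, from -1.66 to 0.32.

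Neither PD-1 ligand passed in the unblocked fit. *Cd274*, which encodes PD-L1, was at 326, 375, 463, 439 and 322 CPM in ARG1+ and at 334, 417, 397, 491 and 431 CPM in ARG1- libraries. The ranges overlap over most of their length, and m234 had more in ARG1+ cells, unlike the other mice. The log2 fold change was -0.065, and its 95% interval of -0.35 to 0.22 ends above the estimate for *Cd86* (FDR 0.775, edgeR), a difference between genes that was not tested itself. A gene on the opposite strand covers 10.9% of the exon bases of *Cd274*.

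*Pdcd1lg2*, which encodes PD-L2, had the highest coefficient of variation of the 10 genes over the ARG1+ libraries. It was at 17.4, 6.15, 22.9, 6.98 and 3.57 CPM in ARG1+ and at 25.7, 11.7, 26.8, 19.5 and 11 CPM in ARG1- libraries, a coefficient of variation of 73.0% and 39.3%. In both groups m2 and m234 were high, and the groups overlap, yet all 5 mice had less in their ARG1+ cells, by -0.23 (m234) to -1.63 (m236) on the log2 scale. The fit without a block gave -0.67 ± 0.45 (SE, FDR 0.348, edgeR), and that with the animal as a block gave -0.88 (FDR 0.00414, edgeR). *A930007I19Rik*, on the opposite strand within the same locus and without exon overlap, was at 39.7 to 61.8 CPM in ARG1+ and 24.4 to 45.5 CPM in ARG1- libraries.

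Per 100 counts of *Cd274* there were 5.34, 1.64, 4.94, 1.59 and 1.11 counts of *Pdcd1lg2* in ARG1+ and 7.69, 2.81, 6.76, 3.97 and 2.56 in ARG1- libraries. The ratio was lower in ARG1+ cells of all 5 mice, but m2 and m234 stood above the others in both groups, and the difference of -0.86 in log2 ratio did not pass (exact permutation test, 2-sided, n = 5 per group, p = 0.167, adjusted p = 0.25). Within mice the exact sign-flip test gave p = 0.0625, the smallest that 5 pairs allow.

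VISTA, encoded by *Vsir*, was at 282, 269, 308, 256 and 295 CPM in ARG1+ and at 314, 302, 420, 269 and 307 CPM in ARG1- libraries. All 5 mice had less in ARG1+ cells, but the groups overlap, and the log2 fold change of -0.15 ± 0.10 (SE) did not pass without the block (FDR 0.358, edgeR) or with it (-0.14, FDR 0.0672, edgeR). The 420 CPM again belongs to m234, and without that library the value was -0.036 (FDR 0.756, edgeR).

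*Havcr2*, which encodes TIM-3, had the lowest FDR of the 10 genes without the block, while *Cd40* had it with the block (9.52e-06, edgeR). It was at 70.0, 70.3, 72.0, 74.8 and 83.1 CPM in ARG1+ and at 110, 101, 142, 110 and 111 CPM in ARG1- libraries, without overlap. The ARG1+ libraries were close together, with a coefficient of variation of 7.29%, while m234 stood above the other ARG1- libraries. The log2 fold change was -0.59 ± 0.088 (SE, FDR 0.00184, edgeR), so the level fell by 33.4%. Without the ARG1- library of m234 it was -0.50 (FDR 0.000904, edgeR).

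Galectin-9, a described ligand of TIM-3, did not pass. *Lgals9* was at 202, 177, 153, 244 and 192 CPM in ARG1+ and at 211, 181, 179, 216 and 195 CPM in ARG1- libraries, and the ARG1- range lies within the ARG1+ range. Its log2 fold change was 0.018 (95% interval -0.22 to 0.26, FDR 0.937, edgeR), and its sign turned to -0.023 with library totals as the only scaling (FDR 0.914, edgeR). The ratio of *Lgals9* to *Havcr2* rose. Per 100 counts of *Havcr2* there were 288, 251, 212, 326 and 232 counts of *Lgals9* in ARG1+ and 192, 180, 126, 197 and 176 in ARG1- libraries, without overlap. The difference was 0.59 in log2 ratio, higher in ARG1+ cells of 5 of 5 mice (exact permutation test, 2-sided, n = 5 per group, p = 0.00794, the smallest it can give, adjusted over 3 ratios p = 0.0238). It was 0.48 without the ARG1- library of m234 (exact permutation test, adjusted p = 0.0476). Within mice the exact sign-flip test cannot go below p = 0.0625, and its adjusted p was 0.0938.

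**Figure D3:**
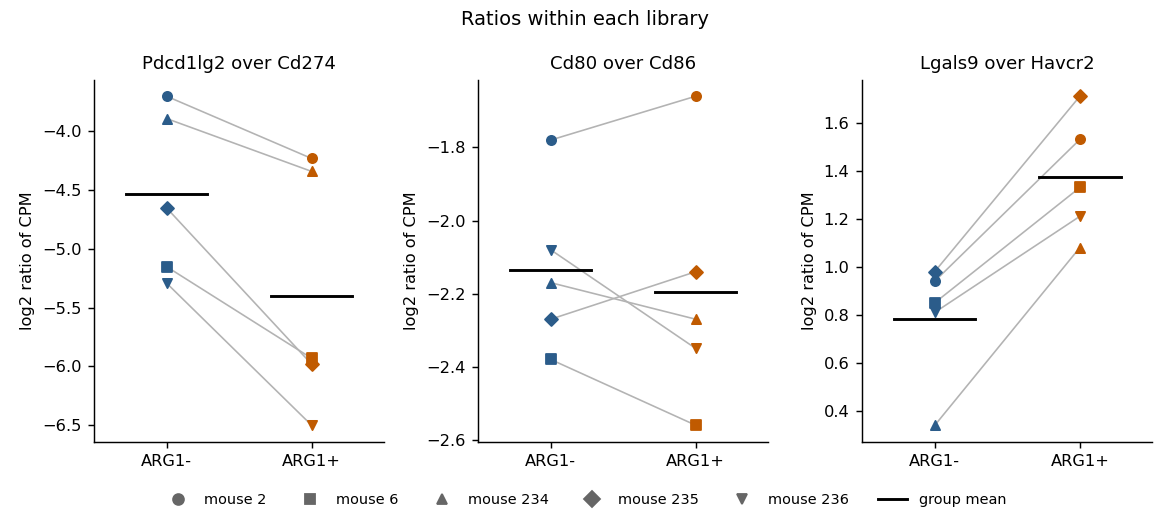
Log2 ratio of CPM within each library (vertical axes, not from 0) for *Pdcd1lg2* over *Cd274*, *Cd80* over *Cd86* and *Lgals9* over *Havcr2*, with lines joining the libraries of 1 mouse and black bars for group means. *Lgals9* over *Havcr2* is 1.08 or higher in ARG1+ and 0.98 or lower in ARG1- libraries, and the other ratios overlap.

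For a view of the sequence at the start of genes that were lower in ARG1+ cells, the promoter windows of *Cd80*, *Icosl* and *Havcr2* are set beside that of *Cd274*, which did not pass. They are the RefSeq windows on GRCm38.p6, 250 bases before to 50 bases after the annotated start, and 7 of the 10 genes had one. All are on the plus strand and written 5′ to 3′. Capitals mark matches on either strand to an NF-kB motif (GGG and CC with any 5 bases between), an interferon-stimulated element (GAAA and GAAA with any 2 bases between), a STAT motif (TTCNNNGAA) or an AP-1 motif (TGANTCA). The window of *Cd80* is chr16:38458683-38458982, whose start lies downstream of the GENCODE start of the gene at 38455561. The window of *Icosl* is chr10:78069118-78069417, that of *Havcr2* is chr11:46454681-46454980 and that of *Cd274* is chr19:29367188-29367487.
Cd80: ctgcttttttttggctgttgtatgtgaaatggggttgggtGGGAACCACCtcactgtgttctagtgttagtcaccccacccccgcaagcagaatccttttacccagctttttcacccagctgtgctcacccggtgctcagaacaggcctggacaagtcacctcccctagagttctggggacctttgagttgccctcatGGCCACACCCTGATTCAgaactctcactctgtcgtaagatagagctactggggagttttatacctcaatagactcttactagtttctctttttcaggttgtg
Icosl: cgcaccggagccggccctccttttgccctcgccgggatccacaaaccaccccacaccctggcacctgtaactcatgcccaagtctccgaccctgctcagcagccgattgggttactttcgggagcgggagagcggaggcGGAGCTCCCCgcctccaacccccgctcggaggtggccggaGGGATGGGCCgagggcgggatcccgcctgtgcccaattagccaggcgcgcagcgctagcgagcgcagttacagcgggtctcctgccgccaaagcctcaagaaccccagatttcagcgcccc
Havcr2: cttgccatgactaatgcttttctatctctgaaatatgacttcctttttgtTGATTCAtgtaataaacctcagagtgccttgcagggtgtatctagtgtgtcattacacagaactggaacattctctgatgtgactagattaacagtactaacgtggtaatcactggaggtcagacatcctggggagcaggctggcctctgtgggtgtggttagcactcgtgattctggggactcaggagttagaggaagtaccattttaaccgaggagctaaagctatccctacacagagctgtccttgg
Cd274: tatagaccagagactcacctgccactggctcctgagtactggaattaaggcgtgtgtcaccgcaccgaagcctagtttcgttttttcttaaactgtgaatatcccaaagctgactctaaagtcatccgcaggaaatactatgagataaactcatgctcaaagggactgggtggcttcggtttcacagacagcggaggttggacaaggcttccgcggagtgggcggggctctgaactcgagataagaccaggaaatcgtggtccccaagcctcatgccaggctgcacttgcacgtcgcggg

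The *Cd80* window held 2 NF-kB matches, from -210 to -201 and from -52 to -43 relative to the start, and an AP-1 match directly after the second, from -42 to -36, so that both run together in capitals. *Icosl* had 2 NF-kB matches, from -111 to -102 and from -71 to -62, and *Havcr2* an AP-1 match from -200 to -194. The *Cd274* window had 0 matches to the 4 motifs, but the windows of *Pdcd1lg2* and *Lgals9*, which did not pass either, each held an NF-kB match, and that of *Havcr2* held none. Of 32851 RefSeq windows of this length, 50.8% held the NF-kB letters, 7.81% AP-1, 8.3% STAT and 3.44% the interferon-stimulated element. Matches to the last of these were found in 1 of the 7 windows, that of *Lgals9*. A match to so loose an NF-kB pattern is common and says nothing about binding.

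Genes of CD40 signalling were counted next, from a list of TRAF adaptors, inhibitors of apoptosis and NF-kB components. Of its 12 genes, all tested, 7 were lower and 0 higher in ARG1+ cells (background 6.15% and 6.82%), with a median log2 fold change of -0.25. DESeq2 and limma-trend gave 10 and 7 lower and 0 higher, and an unadjusted p below 0.05 held for 10 lower and 0 higher. With the animal as a block 11 were lower and 1, *Tnfaip3*, which encodes an inhibitor of NF-kB, was higher. *Nfkb1*, the precursor of the p50 subunit, was at 303, 268, 304, 246 and 262 CPM in ARG1+ and at 419, 376, 418, 363 and 343 CPM in ARG1- libraries, without overlap (-0.43 ± 0.076 SE, FDR 0.00417, edgeR). *Map3k14*, the kinase of the non-canonical NF-kB pathway, changed by the same amount (-0.43, FDR 0.00602, edgeR). These were the 2 genes of the list that passed in all 15 fits that left out a library or an animal.

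The other CD40 pathway genes that fell lost their calls in some fits that left out a library or an animal, without the block. All of them passed with the animal as a block, from *Relb* (FDR 0.000244) to *Traf6* (FDR 0.00566, edgeR). *Traf1* (-0.55, FDR 0.0288), *Traf2* (-0.36, FDR 0.0274) and *Traf6* (-0.20, FDR 0.0242, edgeR), adaptors that bind CD40 or act with it, lost their calls in 10, 7 and 8 of the 15 fits. *Nfkb2* (-0.24, FDR 0.0214) and *Relb* (-0.28, FDR 0.0392, edgeR), partners in the non-canonical pathway, lost theirs in 5 and 11. For *Traf1* m234 went the other way, at 23.0 CPM in its ARG1+ and 21.9 CPM in its ARG1- library. Without the ARG1- library of m234, *Traf2* changed by -0.27 (FDR 0.0235, edgeR).

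Among the regulators of PD-L1, 2 of 9 were lower and 0 higher, with a median of -0.20, and with the block 5 were lower, against 6.15% and 18.3% of all genes. DESeq2 and limma-trend called 4 and 2 lower and 0 higher, and an unadjusted p below 0.05 held for 5 lower and 0 higher. *Jak2*, a kinase of the interferon-gamma receptor, was at 157, 153, 181, 165 and 152 CPM in ARG1+ and at 271, 243, 256, 293 and 233 CPM in ARG1- libraries (-0.64 ± 0.077 SE, FDR 0.000488, edgeR). *Cmtm6*, which keeps PD-L1 at the cell surface, was at 147 to 151 CPM in ARG1+ and at 172 to 243 CPM in ARG1- libraries (-0.34, FDR 0.0183, edgeR), and lost its call in 3 of the 15 fits. Without the ARG1- library of m234 it changed by -0.25 (FDR 0.00587, edgeR), and with the animal as a block by -0.33 (FDR 0.00306, edgeR). *Cd274* itself did not pass beside them. *Irf1*, which carries the interferon signal to the *Cd274* promoter, was lower in all 5 mice. It did not pass without the block (-0.27, FDR 0.134, edgeR) but did with it (-0.28, FDR 0.00384, edgeR).

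Of 21 other ligands of T cells, 12 were tested, 1 rose and 0 fell, with a median of -0.10, and with the block 5 were lower and 2 higher. Of all genes 6.82% rose and 6.15% fell, and with the block 16.8% and 18.3%. An unadjusted p below 0.05 held for 4 lower genes, and DESeq2 and limma-trend called 2 and 1 lower. The gene that rose was *Lgals3*, which encodes galectin-3, at 1570 to 2150 CPM in ARG1+ and 1080 to 1610 CPM in ARG1- libraries (0.40 ± 0.12 SE, FDR 0.048, edgeR). It was higher in all 5 mice, but its call was lost in 13 of 15 fits. The fit with the animal as a block gave 0.40 (FDR 0.0015, edgeR). *Vtcn1*, *Cd70* and *Fgl1* had 0 counts in all libraries.

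Of 9 inhibitory receptors of myeloid cells, 6 were tested, 1 rose and 1 fell, where 6.82% of all genes rose and 6.15% fell. *Cd200r1*, the receptor for CD200, was at 24.2 to 34.7 CPM in ARG1+ and 11.6 to 21.8 CPM in ARG1- libraries, without overlap (0.60 ± 0.15 SE, FDR 0.0244, edgeR), and lost its call in 6 of 15 fits. The fit with the animal as a block gave 0.61 (FDR 0.00112, edgeR). *Siglece*, an inhibitory receptor for sialic acids, was at 15.7, 11.9, 13.6, 13.1 and 11.1 CPM in ARG1+ and at 29.7, 24.1, 22.4, 22.4 and 23.2 CPM in ARG1- libraries. It fell by 0.86 on the log2 scale (FDR 0.000464, edgeR) and passed in all 15 fits.

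The receptors through which T cells read these ligands were also counted, although the gate excludes CD3+ cells. Of 11 genes 6 were tested, 1 rose and 1 fell, where 6.82% of all genes rose and 6.15% fell. An unadjusted p below 0.05, DESeq2 and the block each gave 1 higher and 2 lower, and limma-trend 1 and 1. The block called 16.8% of all genes higher and 18.3% lower. *Cd28*, *Ctla4* and *Icos* were at or below 1.09 CPM in every library. *Pdcd1*, which encodes PD-1, was at 0.532 to 1.84 CPM in ARG1+ and 0.638 to 16.1 CPM in ARG1- libraries and lower in all 5 mice. It did not pass without the block (-1.97, FDR 0.0905, edgeR) but did with it (-1.54, FDR 0.0263, edgeR). *Lag3* was at 10.8 to 31.9 CPM in ARG1+ and 10.2 to 153 CPM in ARG1- libraries and did not pass with or without the block. The highest values of both were those of the ARG1- library of m234. *Tnfrsf9*, the receptor for the *Tnfsf9* product, was at 63.8, 42.7, 66.6, 54.6 and 29.4 CPM in ARG1+ and at 35.6, 24.3, 33.8, 34.2 and 20.9 CPM in ARG1- libraries. Every mouse had more in ARG1+ cells (0.84 ± 0.22 SE, FDR 0.0272, edgeR), but the groups overlap and the call was lost in 8 of 15 fits. The fit with the animal as a block gave 0.80 (FDR 1.84e-05, edgeR). *Btla*, an inhibitory receptor of lymphocytes and dendritic cells, was at 0.177 to 0.658 CPM in ARG1+ and 1.35 to 2.74 CPM in ARG1- libraries (-2.64 ± 0.38 SE, FDR 0.00134, edgeR). It passed in all 15 fits.

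**Figure D4:**
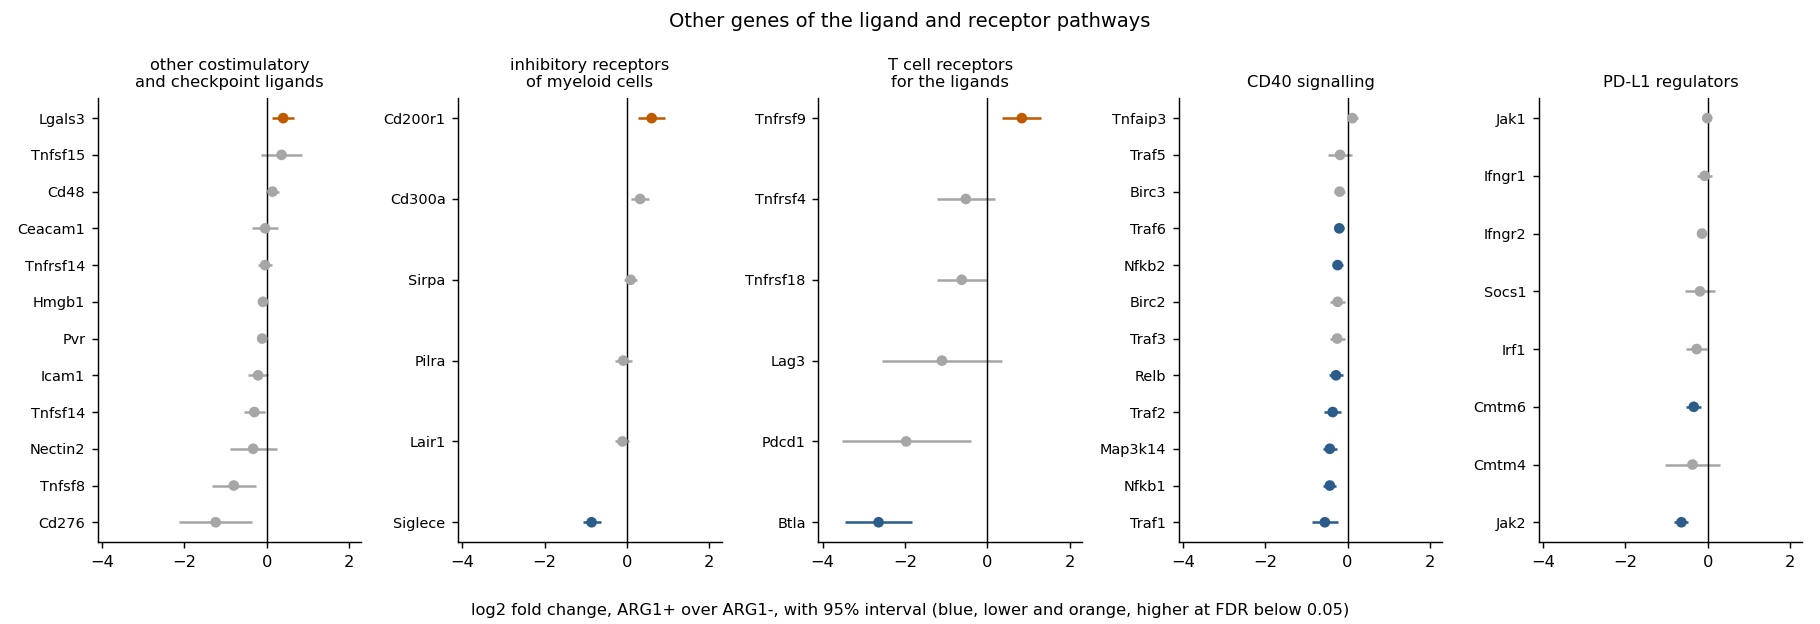
Log2 fold change of ARG1+ over ARG1- cells (horizontal axis) with its 95% interval for the tested genes of the 5 pathway lists apart from 1 that is not reported here, blue where lower and orange where higher at an FDR below 0.05. CD40 signalling has 7 genes in blue, and *Btla* has the largest change, -2.64.

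Markers of other cell types that the gate could hold were counted as well, and the calls went both ways. Dendritic cells carry high CD80, CD86 and CD40, and most of their tested markers were lower in ARG1+ cells, where 6.15% of all genes were lower. Of 8 markers of conventional dendritic cells 5 were tested and 4 were lower, among them *Flt3*, the receptor that these cells depend on, at 0.0591 to 0.418 CPM in ARG1+ and 2.16 to 6.19 CPM in ARG1- libraries (-3.59 ± 0.37 SE, FDR 0.00024, edgeR). *Clec9a*, the most abundant of the list, was at 6.59 to 20.6 CPM in ARG1+ and 7.80 to 17.6 CPM in ARG1- libraries and did not pass. The list summed to 9.90 to 25.2 CPM in ARG1+ and 18.8 to 39.7 CPM in ARG1- libraries.

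Of 8 markers of mature dendritic cells, all tested, 5 were lower, each by more than 1 on the log2 scale, against 0.888% of all genes. *Ccl22*, a chemokine, was at 0.355 to 2.11 CPM in ARG1+ and 5.50 to 21.3 CPM in ARG1- libraries (-3.12 ± 0.45 SE, FDR 0.00143, edgeR), and *Socs2*, the most abundant, was at 27.5 to 40.4 and 15.5 to 29.2 CPM. *Socs2* was higher in the ARG1+ cells of all 5 mice and did not pass in edgeR without the block (0.41 ± 0.15 SE, FDR 0.0938), while the block (0.43, FDR 0.00384, edgeR) and DESeq2 (FDR 0.0479) called it higher. The block and DESeq2 called 6 of the list lower, where the block called 18.3% of all genes lower. The list summed to 34.5 to 52.2 CPM in ARG1+ and 48.5 to 104 CPM in ARG1- libraries, overlapping. The part of dendritic cells in the lower ligands was not tested.

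Of the 9 markers of the gated cells, 2 were higher and 1 was lower, and with the block 3 were higher and 6 lower. For this and the next lists, 6.82% of all genes were higher and 6.15% lower, and with the block 16.8% and 18.3%. Without 1 library or 1 mouse 0 to 3 were higher and 1 to 2 lower, with 0 higher without m2 or m6 as a whole. The list summed to 12800 to 18000 CPM in ARG1+ and 12000 to 14600 CPM in ARG1- libraries. *Ccr2*, a receptor of monocytes, was lower (-1.12 ± 0.19 SE, FDR 0.00339, edgeR), at 129 to 232 CPM in ARG1+ and 295 to 514 CPM in ARG1- libraries, and *Lyz2*, lysozyme, was higher (0.65 ± 0.13 SE, FDR 0.00764, edgeR). *Cx3cr1*, the gene of the gate, was at 42.8 to 228 CPM in ARG1+ and 101 to 572 CPM in ARG1- libraries and lower in ARG1+ cells of all 5 mice, by -1.01 without the block (FDR 0.153, edgeR) and -0.97 with it (FDR 9.24e-05, edgeR). Of the 7 microglia markers edgeR called 0 without the block and 6, all lower, with it, 5 were lower at an unadjusted p below 0.05, and DESeq2 and limma-trend called 1 and 0. Without the ARG1- library of m235 edgeR called 5 lower, and without m235 as a whole 2, against 0 in the other 13 fits. *Sparc* was at 22.3 to 74.0 and 43.5 to 636 CPM in ARG1+ and ARG1- libraries, the highest value again that of m234. It changed by -1.76 ± 0.62 (SE, FDR 0.0818, edgeR), by -0.70 without that library (FDR 0.209, edgeR) and by -1.24 with the block (FDR 0.0227, edgeR). Of 7 markers of CNS-associated macrophages 3 were tested and 2 were higher, or 3 with the block or in DESeq2. The list summed to 685 to 1340 CPM in ARG1+ and 326 to 810 CPM in ARG1- libraries. Most of this sum was *F13a1*, at 636 to 1270 CPM in ARG1+ and 307 to 782 CPM in ARG1- libraries. *Cd163*, *Lyve1*, *Folr2* and *Cbr2* were at or below 1.61 CPM in every library and were not tested. *Pf4*, a chemokine, was at 10.1 to 26.1 and 1.91 to 8.49 CPM (1.88 ± 0.31 SE, FDR 0.00324, edgeR), and *F13a1*, a coagulation factor and the most abundant, was higher in all 5 mice and did not pass without the block (0.78, FDR 0.0511, edgeR) but did with it (0.82, FDR 1.62e-05, edgeR).

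Lymphocyte markers were near the floor. The 7 B cell markers summed to at most 5.72 CPM in any library, with *Cr2* and *Fcer2a* at 0 counts, the 8 T cell markers to at most 4.64 CPM and the 5 NK cell markers to at most 1.66 CPM. In edgeR, DESeq2, limma-trend and at an unadjusted p below 0.05, 0 of these genes passed, and 1 T cell marker, *Cd5*, was lower with the block. Their most abundant tested genes were *Cd79b* (0.857 to 2.90 and 1.17 to 5.12 CPM) and *Cd5* (0.207 to 1.33 and 0.774 to 2.86 CPM in ARG1+ and ARG1- libraries). Of 8 neutrophil markers 3 were tested and 1, *S100a9*, was lower (-3.40 ± 0.71 SE, FDR 0.00977, edgeR), at 0.158 to 0.352 CPM in ARG1+ and 0.476 to 6.50 CPM in ARG1- libraries. When m2, m6 or m235 was left out, as a whole or by its ARG1- library alone, the gene fell below the filter on low counts and was not tested. *Mmp8*, the most abundant, was at 112 to 285 and 53.9 to 161 CPM, higher in ARG1+ cells of all 5 mice. It did not pass without the block (0.84, FDR 0.0878, edgeR), and with the block *Mmp8* (0.89, FDR 4.23e-05) and *S100a8* (0.26, FDR 0.0154, edgeR) were higher. Of 5 oligodendrocyte markers 4 were tested and edgeR and limma-trend called 0, while DESeq2 and an unadjusted p below 0.05 gave 1 that was higher, with *Mbp* at 92.9 to 108 and 83.1 to 103 CPM and *Mobp* at 4.09 to 4.70 and 3.23 to 6.31 CPM. The part of these markers in the ligand differences was not tested.

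**Figure D5:**
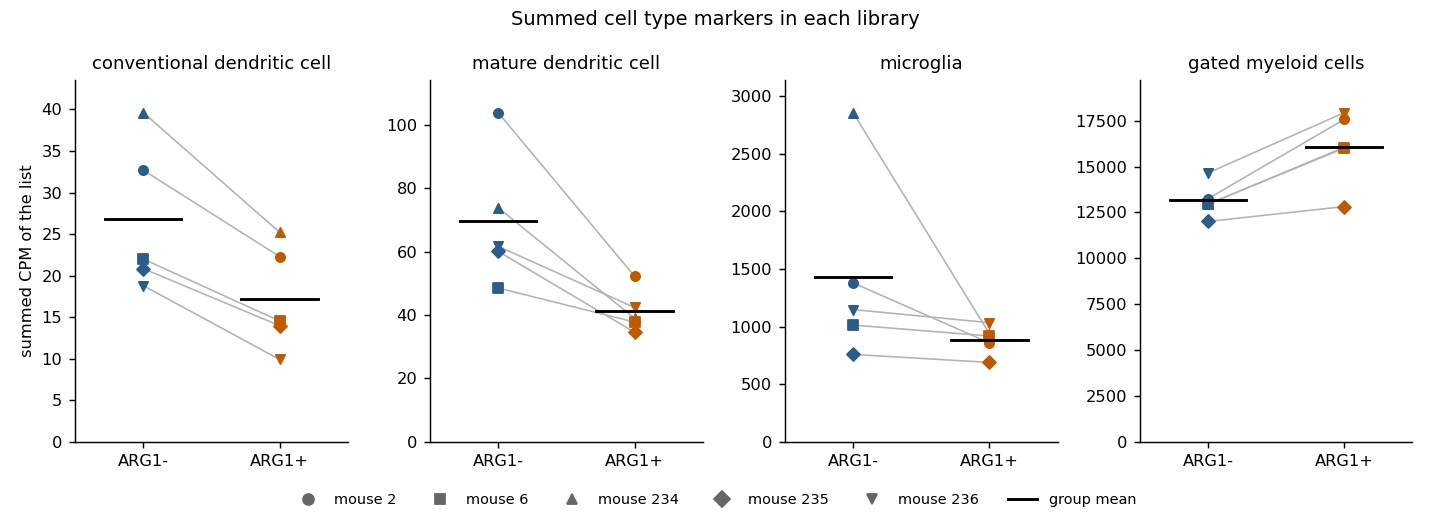
Summed CPM (vertical axes, from 0) of the markers of conventional and mature dendritic cells, microglia and the gated cells in each library, with lines joining the libraries of 1 mouse and black bars for group means. Both dendritic cell sums are lower in ARG1+ cells of all 5 mice, and the ARG1- library of m234 reaches 2860 CPM for microglia.

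The genes whose log2 CPM was most like that of a called ligand over the 10 libraries are given as a description, since the libraries share mice and the group difference. For *Cd40* these were *Tap2* (Pearson r = 0.989), *Chmp4b* (0.989) and *Psmb8* (0.978), of which *Tap2* and *Psmb8* serve antigen processing. They kept r of 0.946 to 0.964 after the group means were removed. The genes named next for the other called ligands kept r of 0.859 to 0.986. All were picked for their likeness over these same libraries. *Cd86* was most like *Rnase6* (0.987), *Ip6k1* (0.981) and *Mycl* (0.981), and *Havcr2* most like *Dyrk2* (0.983), *Zfp592* (0.982) and *Hivep1* (0.976). *Icosl* was most like *Itpkc* (0.993), *Otud1* (0.984) and *Hap1* (0.983), and *Cd80* most like *Klf11* (0.955), *Tmpo* (0.945) and *Pogk* (0.943).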

How the data were processed

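RNA was sequenced from ARG1+ and ARG1- cells of 5 mice with directional library kits and 50-base reads. The authors aligned the reads with STAR (2.7.10b in the submitters' processing notes) to GRCm38 and used summarizeOverlaps (Union mode, Ensembl 100 annotation) for counting, which drops reads that overlap more than 1 feature. The deposited values are whole read counts per gene without normalization. Genes with CPM above 1 in at least 3 of the 10 libraries (13740) were tested with edgeR 4.0.16 (quasi-likelihood, TMM, R 4.3.3), Benjamini-Hochberg adjusted over all of them. Alternatives were DESeq2 1.42.0, limma-trend (limma 3.58.1), other library sizes and filters, a block for the animal, and fits without 1 library or 1 mouse. Libraries of the same animal had residual correlations of 0.361 to 0.664 across genes, those of different animals at most 0.0675, and the replicate numbers name the mice, so the libraries are paired by animal. On simulated counts of this comparison, with 196 changed genes among 13607, each of the 4 fits recovered 195, with 8 false calls for edgeR with or without the block, 7 for limma-trend and 45 for DESeq2. The planted changes were 2 on the log2 scale in either direction, larger than those of any called member. No animal effect was simulated, so the recovery of smaller changes and the block in paired libraries were not tested. TPM used the exon lengths of a GENCODE annotation of the same build. One CPM is 8.40 counts in the smallest library and 35.46 in the deepest. The genes named are the 10 members, called genes of the pathway lists, the most abundant and the most changed gene of each marker list, and the 3 genes most like each called member. *Tnfaip3*, *Irf1*, *Pdcd1*, *Lag3*, the lists' genes at or near 0, the gate markers, *S100a8* and the genes on opposite strands were named after their values were seen. Of the genes that the rule or the lists name, 2 are not reported here, though list counts and sums include them. The members and lists were chosen with earlier results of these data known.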

Additional observations from a re-analysis of the deposited data

Results flagged for a closer look

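Among 74 sets of 5 libraries checked, 9 held a library far from the other 4 by Dixon's test, where chance gives about 1 in 20. In the ARG1- library of m234, 4 values stood apart: *Icosl* at 59.7 CPM (others 23.6 to 31.7), *Havcr2* at 142 CPM (others 101 to 111), *Traf2* at 33.7 CPM (others 23.7 to 25.7) and the log2 ratio of *Lgals9* to *Havcr2* at 0.34 (others 0.812 to 0.978). This is the library with the lowest total and the highest sum of microglia markers, and their part in these values was not tested. In the ARG1- library of m2, *Siglece* was at 29.7 CPM (others 22.4 to 24.1).

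Of the ARG1+ libraries, that of m235 had *Lgals3* at 2150 CPM (others 1570 to 1730) and NK cell markers at a sum of 0.296 CPM (others 0.589 to 0.695), that of m2 had *Btla* at 0.658 CPM (others 0.177 to 0.284), and that of m234 had *Map3k14* at 20 CPM (others 15.5 to 16.7).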

How the results depend on the processing

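Of the 10 members, 5 were lower with DESeq2, limma-trend, every library size and both other filters, 6 with the replicate block, 3 to 5 in leave-outs of 1 library or mouse, and 0 with a log2 limit of 1. The block changed the call of no other member than *Pdcd1lg2*. Other listed genes, 11 lower and 3 higher, were 19 lower with DESeq2, 17 lower and 2 higher with total counts only, and 24 lower and 6 higher with the block; leave-outs gave 5 to 16 lower and 0 to 3 higher. Marker genes, 11 lower and 4 higher, were 8 higher with DESeq2 and 24 lower and 10 higher with the block; leave-outs gave 7 to 16 lower and 1 to 7 higher. Over all genes, 845 were lower and 937 higher; DESeq2 gave 1307 lower, total counts 1282 lower and 701 higher, the block 2519 lower and 2307 higher, and leave-outs 284 to 911 lower and 360 to 1037 higher. Estimates near 0 changed sign: *Tnfsf9* (-0.0083) and *Lgals9* (-0.023) with total counts, *Cd79b* (-0.0038) with DESeq2, and in leave-outs *Cd274* (-0.16 to 0.017), *Tnfsf9* (-0.047 to 0.14), *Lgals9* (-0.084 to 0.092), *Cd79b* (-0.12 to 0.46) and the log2 ratio of *Cd80* to *Cd86* (-0.19 to 0.031). For *Lgals9* over *Havcr2* (0.59) the within-animal block gave an adjusted p of 0.0938. The cause of these shifts was not tested.

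Expression here is RNA of 5 male mice at 1 stage of disease; surface protein and healthy spinal cord were not analysed here. The fits of 4 against 5 libraries, and of 4 mice, have fewer samples. The shallowest library has 8396863 counts, so genes near 1 CPM rest on few reads there.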
